A study of Mus musculus with 6 samples.

Results

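The genes described here encode 7 lysosomal cathepsins (Ctsb, Ctsc, Ctsd, Ctsl, Ctss, Ctsz and Ctsh), the lysosomal protease legumain (Lgmn), lysosomal acid lipase (Lipa) and the lysosomal membrane glycoprotein Lamp1. They were chosen by name with earlier results of these data known, and were found in the count table through their gene identifiers. They are 10 of 55487 genes in the table and 10 of the 15774 genes tested. Libraries came from neutrophils sorted as Ly6G-positive cells from perfused, enzyme-digested mouse lungs. The 3 mutant libraries are from Mrp8-Cre;TGFbR2-fl/fl mice, in which a Cre-EGFP transgene under the S100A8 (Mrp8) promoter, active in the neutrophil lineage, targets loxP-flanked alleles of the TGF-beta receptor gene Tgfbr2. The 3 wt libraries are from Cre-negative TGFbR2-fl/fl littermates, which carry the same loxP-flanked alleles, so that effects of the Cre-EGFP transgene and of the receptor deletion cannot be told apart. The Cre line is on a B6 background and the loxP line on a mixed B6 and 129 background. The sources used here give neither age nor sex. Each group had 3 mice by design, yet no label links a library to its mouse, so a p-value here covers only the spread among libraries.

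Lysosomal cathepsins are proteases that are made as inactive precursors, delivered to the lysosome mostly by mannose 6-phosphate receptors, and activated at low pH by cleavage. In neutrophils cathepsin C is best known for removing a dipeptide from the granule serine proteases elastase, cathepsin G and proteinase 3 during granule formation in the bone marrow, while acid lipase frees cholesterol and fatty acids from internalised lipids. Macrophages carry far more lysosomal cathepsin than most cell types, and many lysosomal genes share a promoter element with the core letters CACGTG, which is bound by the transcription factor TFEB.

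Library totals ran from 30403494 to 35906780 counts, and each of the 10 genes had between 975 and 32698 counts in every library. The targeted gene Tgfbr2 was at 176, 205 and 181 CPM (counts over the TMM-scaled library total) in mutant libraries 1 to 3 and at 186, 185 and 201 CPM in wt libraries 1 to 3. These counts pool all exons, deleted or not, so they do not check the genotype labels. The neutrophil markers Csf3r (7689 to 8111 CPM in mutants and 8042 to 9233 CPM in wt) and S100a8 (966 to 1507 CPM in mutants and 1687 to 1752 CPM in wt) were abundant, and the sort marker Ly6g was detected at 14.4 to 33.6 CPM in mutants and 19.3 to 35.2 CPM in wt.

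Per unit of gene length, the aspartic protease gene Ctsd was the most abundant of the 10 in both groups. Levels of different genes are given as TPM (counts divided by the summed exon length and scaled to a common total). Ctsd averaged 1333 ± 172 TPM in mutants and 1208 ± 57.5 TPM in wt (SD, n = 3 each), which is 37.0% of the TPM of the 10 genes in mutants and 38.0% in wt, and ranked 123 among the tested genes by its wt mean. The carboxypeptidase gene Ctsz came next at 676 ± 97.4 TPM in mutants and 555 ± 22.9 TPM in wt, with ranges apart from those of its neighbours in the order. Ctss, which encodes a protease that also works at neutral pH and cuts the MHC class II invariant chain, was at 483 ± 88.2 TPM in mutants and 457 ± 68.8 TPM in wt. Lamp1, a main glycoprotein of the lysosomal membrane, was at 420 ± 20.8 TPM in mutants and 403 ± 14.7 TPM in wt. The levels of Ctss and Lamp1 overlapped in each group and their order is not resolved. Ctsb, an endopeptidase and dipeptidyl carboxypeptidase, followed at 305 ± 21.2 TPM in mutants and 274 ± 25.7 TPM in wt.

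The other 5 genes lay lower, from 48.7 to 126 TPM in mutants and from 30.4 to 87.6 TPM in wt. Lipa averaged 126 ± 12.4 TPM in mutants and 87.6 ± 12.1 TPM in wt. Its range lay above those of Lgmn and Ctsh in mutants but overlapped that of Ctsh in wt. The aminopeptidase gene Ctsh was at 75.6 ± 6.14 TPM in mutants and 67.5 ± 10.4 TPM in wt. Lgmn, whose product cuts after asparagine and processes other cathepsins, was at 77.3 ± 12.1 TPM in mutants and 58.2 ± 10.9 TPM in wt, and its range overlapped that of Ctsh in each group. The endopeptidase gene Ctsl averaged 56.3 ± 8.71 TPM in mutants and 41.8 ± 3.17 TPM in wt. Ctsc was the lowest, at 48.7 ± 10.9 TPM in mutants and 30.4 ± 0.877 TPM in wt, and overlapped Ctsl in mutants but not in wt. As an alternative chosen after seeing the data, the length of the longest protein-coding transcript replaced the summed exon length of these 10 genes. The total over all genes was not recomputed, so these values are not TPM and compare only the 10 genes with each other. Lamp1 then moved above Ctss (484 against 458 in wt) and Ctsc above Ctsl (54.9 against 44.0 in wt). The order of the others was kept. Lipa was at 199.99 and Ctsh at 188 in wt, while Lgmn was at 68.0, so that the nearness of Ctsh and Lgmn depends on the length used.

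**Figure D1:**
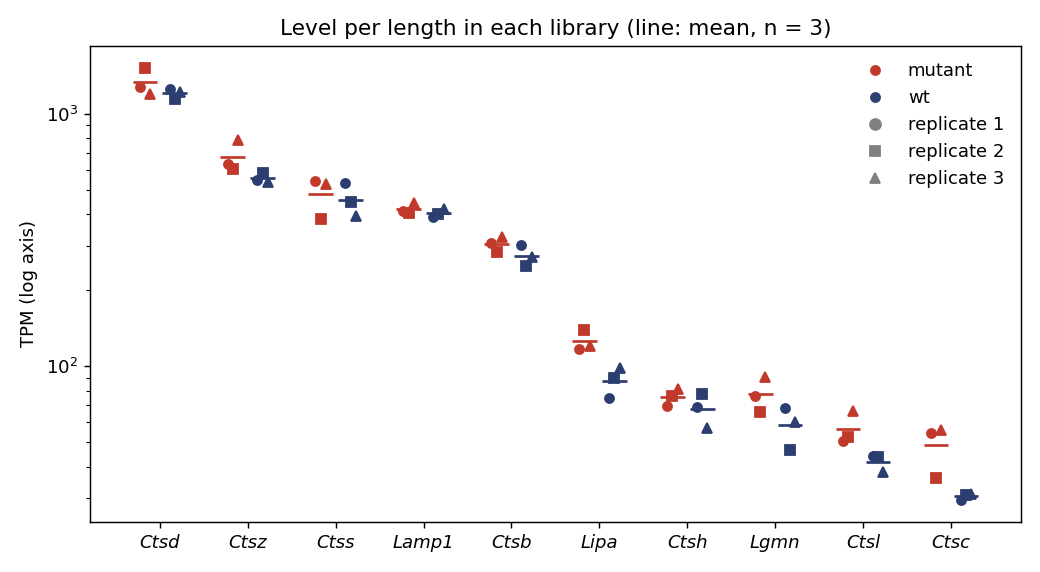
TPM (log axis) of the 10 genes in each library, ordered by the wt mean, with mutant libraries in red on the left and wt libraries in blue on the right of each gene; lines are group means (n = 3). Ctsd stands at 1195 to 1525 TPM in mutants and 1144 to 1255 TPM in wt, and the lowest gene, Ctsc, at 36.2 to 55.6 TPM in mutants and 29.5 to 31.1 TPM in wt.

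Promoter windows from RefSeq on GRCm38.p6 (250 bases before to 50 after a start site, 300 bases) were available for 8 of the 10 genes, not for Ctsb and Ctsh. Windows are shown for the 2 genes with the most CACGTG matches, Lamp1 and Ctsd, which had log2 fold changes of 0.05 and 0.15 between mutant and wt, and for the 2 genes with the largest differences, Ctsc and Lipa, which had 0 such matches. Capitals mark CACGTG, the core of the TFEB element and its own reverse complement, and GAGGAAGT or its reverse complement ACTTCCTC, a form of the site of the myeloid factor PU.1. All windows are given 5′ to 3′ on the gene's strand.
Lamp1 (chr8:13158911-13159210, plus strand): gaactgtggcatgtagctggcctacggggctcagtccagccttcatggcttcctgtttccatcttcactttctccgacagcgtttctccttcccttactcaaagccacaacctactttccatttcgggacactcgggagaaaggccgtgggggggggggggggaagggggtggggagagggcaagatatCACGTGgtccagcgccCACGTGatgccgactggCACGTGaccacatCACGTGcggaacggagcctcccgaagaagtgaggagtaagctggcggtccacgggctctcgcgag
Ctsd (chr7:142387778-142388077, minus strand): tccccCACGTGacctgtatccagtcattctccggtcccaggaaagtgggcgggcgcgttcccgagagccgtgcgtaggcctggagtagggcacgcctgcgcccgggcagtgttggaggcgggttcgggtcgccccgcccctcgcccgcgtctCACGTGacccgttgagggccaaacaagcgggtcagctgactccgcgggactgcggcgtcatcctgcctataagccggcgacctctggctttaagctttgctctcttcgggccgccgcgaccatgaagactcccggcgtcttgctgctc
Ctsc (chr7:88277835-88278134, plus strand): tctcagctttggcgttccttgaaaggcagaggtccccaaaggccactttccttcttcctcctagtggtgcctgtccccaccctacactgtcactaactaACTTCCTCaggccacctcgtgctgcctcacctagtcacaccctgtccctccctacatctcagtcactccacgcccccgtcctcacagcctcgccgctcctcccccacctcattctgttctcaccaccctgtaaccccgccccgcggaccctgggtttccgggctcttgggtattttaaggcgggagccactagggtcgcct
Lipa (chr19:34527425-34527724, minus strand): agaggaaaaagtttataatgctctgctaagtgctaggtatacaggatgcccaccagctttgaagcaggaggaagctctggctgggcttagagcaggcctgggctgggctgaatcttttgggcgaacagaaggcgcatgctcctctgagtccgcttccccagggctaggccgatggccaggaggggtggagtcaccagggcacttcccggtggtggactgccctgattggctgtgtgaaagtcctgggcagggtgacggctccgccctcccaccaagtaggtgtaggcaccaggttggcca

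The Lamp1 window held 4 CACGTG matches, beginning 61, 45, 28 and 15 bases before the start site. The Ctsd window held 2, beginning 245 and 98 bases before it, and the nearer one lies within the longer form TCACGTGA. Ctsl and 1 of the 2 windows of Lgmn held 1 CACGTG each, so that 4 of the 8 genes had a match. Counted by window this is 4 of 9, against 7.15% of 32851 promoter windows of the same length. Ctsl and Lgmn had log2 fold changes of 0.42 and 0.40, and Ctsz and Ctss, with 0 matches, had 0.28 and 0.07. TCACGTGA was found in 0.974% of all windows. GAGGAAGT, searched on both strands, was found in the Ctsc window, beginning 151 bases before the start, in the Ctss window, beginning 2 bases before it, and in 3.2% of all windows. TGANTCA, the AP-1 site, was in 0 of the windows of these genes and in 7.81% of all windows, and CAGAC, a short SMAD-binding form searched on both strands, was in the windows of Ctsl, Ctsz and Lgmn and in 49.6% of all windows. A match describes these letters in this window and does not show binding.

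Between genotypes, all 10 genes had a log2 fold change above 0 (mutant over wt), and 0 of them passed an adjusted p of 0.05 over all tested genes by edgeR's quasi-likelihood test. Among tested genes 50.7% were above 0, while 0.00634% passed in the higher and 0% in the lower direction. The median log2 fold change was 0.22 over the 10 genes and 0.0054 over all tested genes. Because the 10 genes were chosen with earlier results of these data known, such contrasts describe the list and do not test it. For 5 of the 10, Ctsc, Lipa, Ctsl, Lgmn and Ctsz, each mutant library lay above each wt library, as was so for 6.82% of tested genes, and 0 of the 10 were apart in the lower direction, as were 6.21%. The same 5 had an unadjusted p under 0.05, as did 3.51% of tested genes in the higher direction. DESeq2's Wald test on the same genes called 2 of the 10, Ctsc and Lipa, in the higher direction and 0 in the lower, against 0.514% and 0.469% of tested genes, whereas limma-voom called 0 of the 10. In bulk libraries a different number of cells of a type and a different amount of RNA per cell cannot be told apart. The summed level of 15 alveolar macrophage markers was also above the wt range in each mutant library (694 to 1364 CPM in mutants, against 398 to 622 CPM in wt). Much of that sum was Chil3, which neutrophils also express. Without Chil3 the sum was 322 to 364 CPM in mutants and 236 to 304 CPM in wt. The part of macrophages in these differences was not tested.

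Ctsc had the largest difference of the 10. It (ENSMUSG00000030560.17, chromosome 7, 88278085 to 88310888, plus strand of GRCm38) was at 90.9, 64.9 and 91.9 CPM in mutant libraries 1 to 3 and at 49.99, 53.4 and 52.9 CPM in wt libraries 1 to 3. The wt libraries were tightly grouped, and mutant library 2 lay much closer to them than the other two mutant libraries did. The log2 fold change was 0.67 ± 0.15 (SE), a ratio of 1.59, and its 95% interval was 0.33 to 1.00 (adjusted p 0.294, edgeR). DESeq2 gave an adjusted p of 0.0084, and edgeR with no filter on low counts 0.046, so that whether Ctsc passes depends on the test and the filter.

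Lipa (ENSMUSG00000024781.16, chromosome 19, 34492318 to 34527474, minus strand) was at 228, 293 and 232 CPM in mutant libraries and at 148, 181 and 196 CPM in wt libraries. Here mutant library 2 was the highest, the reverse of its place for Ctsc, and the groups did not overlap. The log2 fold change was 0.52 ± 0.14, a ratio of 1.43, and its 95% interval was 0.21 to 0.83 (adjusted p 0.391, edgeR, and 0.041, DESeq2). Ctsl (ENSMUSG00000021477.9, chromosome 13, 64359337 to 64370890, minus strand) was at 94.1, 105 and 122 CPM in mutants and at 83.2, 84.1 and 72.5 CPM in wt, with mutant library 3 highest and a small gap between the groups. Its log2 fold change was 0.42 ± 0.13 (95% interval 0.13 to 0.72, adjusted p 0.498 by edgeR).

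Lgmn (ENSMUSG00000021190.14, chromosome 12, 102394084 to 102439813, minus strand) was at 50.8, 47.4 and 59.6 CPM in mutants and at 46.2, 32.2 and 40.9 CPM in wt. The lowest mutant and the highest wt library nearly met. Its log2 fold change was 0.40 ± 0.17 (95% interval 0.03 to 0.77, adjusted p 0.681 by edgeR). Ctsz (ENSMUSG00000016256.10, chromosome 2, 174427493 to 174439039, minus strand) was at 264, 270 and 323 CPM in mutants and at 229.7, 250.1 and 227 CPM in wt, and mutant library 3 stood above the other libraries. The log2 fold change was 0.28 ± 0.11 (95% interval 0.03 to 0.52, adjusted p 0.660 by edgeR), and without mutant library 3 it was 0.18.

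**Figure D2:**
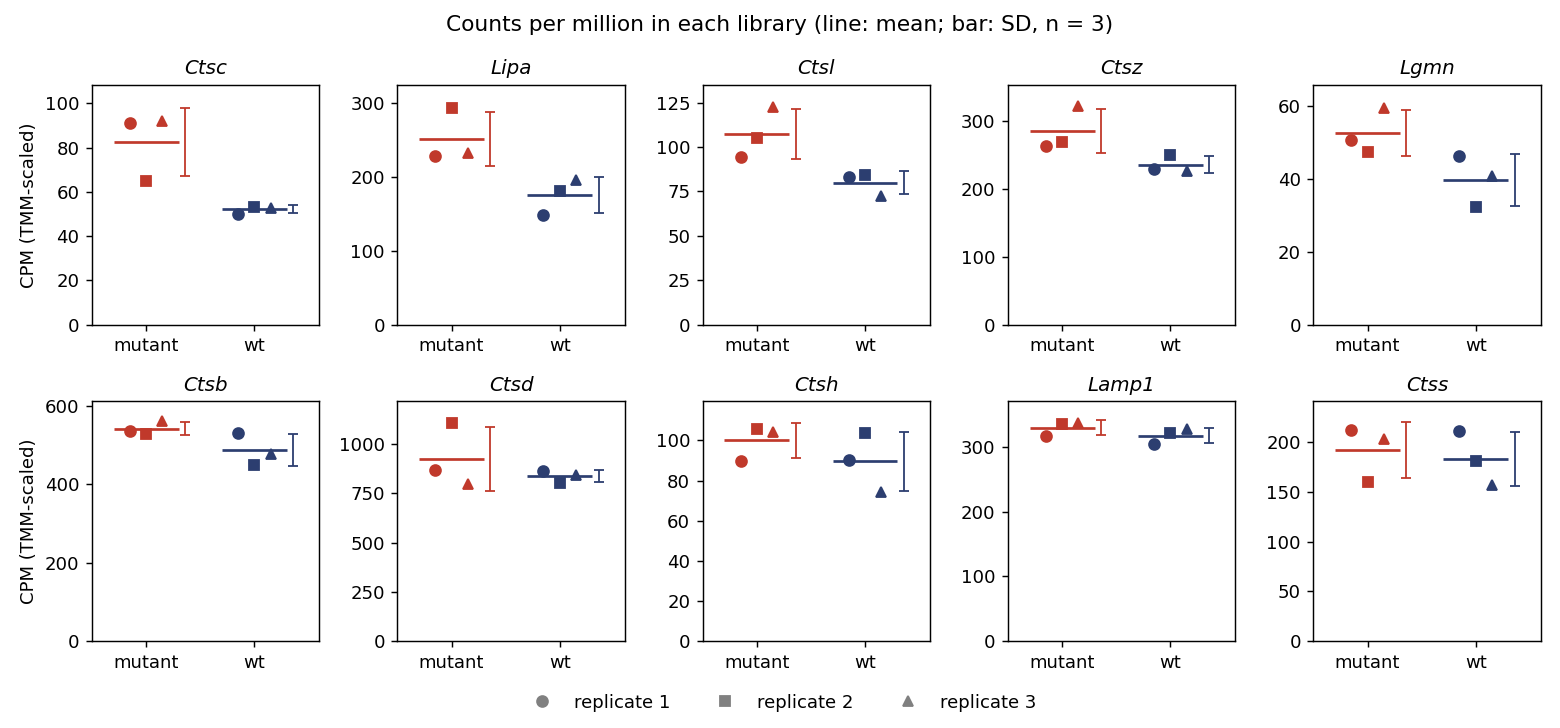
CPM (TMM-scaled, axes from 0) of each gene in each library, mutant in red on the left and wt in blue on the right; symbols mark replicates, lines the mean and bars the SD (n = 3). The groups do not overlap for Ctsc, Lipa, Ctsl, Ctsz and Lgmn, and overlap for the 5 genes of the lower row.

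The libraries of the groups overlapped for the other 5 genes, whose log2 fold changes ran from 0.05 to 0.16. Ctsb (ENSMUSG00000021939.8, chromosome 14, 63122462 to 63145923, plus strand) was at 536, 529.8 and 561 CPM in mutants and at 532, 451 and 479 CPM in wt, with a log2 fold change of 0.15 and a 95% interval of -0.06 to 0.37. Its mutant libraries were all above 2 of the wt libraries, but wt library 1 lay among them, and the log2 fold change was 0.10 without wt library 2. Ctsh (ENSMUSG00000032359.14, chromosome 9, 90054152 to 90076089, plus strand) was at 89.9, 106 and 104 CPM in mutants and at 90.2, 104 and 74.6 CPM in wt, with a log2 fold change of 0.16 and an interval of -0.16 to 0.48. Its wt library 3 was low and the remaining libraries were mixed, and the log2 fold change was 0.04 without wt library 3 and 0.28 without wt library 2.

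Ctsd (ENSMUSG00000007891.16, chromosome 7, 142375911 to 142388038, minus strand) was at 868, 1108 and 799 CPM in mutants and at 863, 803 and 842 CPM in wt, with a log2 fold change of 0.15 and an interval of -0.12 to 0.41. Mutant library 2 stood well above the other 5 libraries, which were mixed, and the log2 fold change was -0.0085 without it and 0.24 without mutant library 3. Ctss (ENSMUSG00000038642.10, chromosome 3, 95526786 to 95556403, plus strand) was at 212, 160.1 and 203 CPM in mutants and at 211, 181 and 157 CPM in wt, with a log2 fold change of 0.07 and an interval of -0.25 to 0.39. Its groups were mixed, and the sign turned without mutant library 1 (-0.0055) and without wt library 3 (-0.03), while it was 0.18 without mutant library 2, 0.19 without wt library 1 and 0.03 without mutant library 3. Lamp1 (ENSMUSG00000031447.7, chromosome 8, 13159161 to 13175338, plus strand) had closely spaced libraries, at 317, 335 and 338 CPM in mutants and at 304, 321 and 327 CPM in wt. Its log2 fold change was 0.05 with an interval of -0.15 to 0.26, the smallest of the 10, and it was 0.03 without wt library 1 and 0.08 without mutant library 1. The adjusted p of these 5 genes ran from 0.858 to 0.992 (edgeR).

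**Figure D3:**
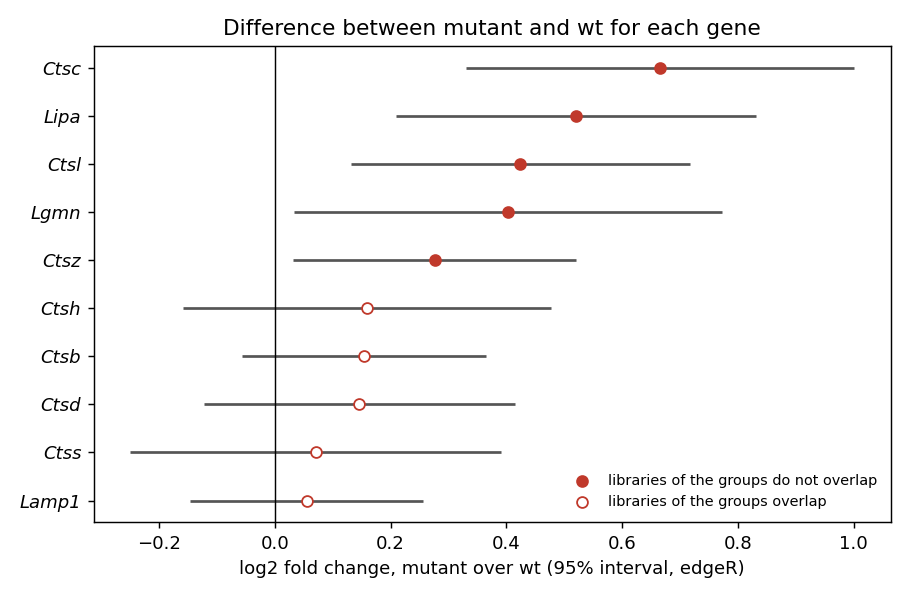
Log2 fold change (mutant over wt) of each gene with its 95% interval from edgeR, sorted by size; filled points are genes whose libraries do not overlap between groups. Intervals of the 5 upper genes lie above 0, from 0.33 to 1.00 for Ctsc down to 0.03 to 0.52 for Ctsz, while those of the 5 lower genes include 0.

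The genes were not high in the same mutant library. Mutant library 3 held the highest CPM for 6 of them (Ctsb, Ctsc, Ctsl, Ctsz, Lgmn and Lamp1), mutant library 2 for 3 (Ctsd, Ctsh and Lipa) and mutant library 1 for Ctss. The lowest CPM was in wt library 3 for 4 genes, wt library 1 for 3, wt library 2 for 2 and mutant library 3 for Ctsd. Summed over the 10 genes, the level was 3538, 3571 and 3691 TPM in mutant libraries 1 to 3 and 3306, 3110 and 3131 TPM in wt libraries 1 to 3. An unadjusted p under 0.05 held for Ctsc, Lipa and Ctsl with any 1 library left out, and the number of genes under it was 3 without mutant library 3 and without wt library 3.

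Reads of overlapping genes could be misassigned or left uncounted for some of these genes. The library method does not mark strand and no source used here states the strand setting of the counting. Exons of Ctsb share 774 bases (12.8% of its exon length) with Fdft1 on the opposite strand, which had 1499 counts over the 6 libraries against 98404 for Ctsb. Lamp1 shares 249 bases with Grtp1, which had 2383 counts against 61795, and Ctsz shares 10 bases with Nelfcd. Ctsd shares 808 bases (34.4% of its exon length) with the gene model Gm49369 on the same strand. Ctsl shares 1742 bases (26.8%) with Gm47123 on the opposite strand and 395 (6.09%) with the pseudogene Gm49230 on the same strand. These 3 models had 0 counts. If reads in shared bases were left uncounted, the TPM of Ctsd and Ctsl would be too low, which was not tested.

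Among the other cathepsin genes of the genome that are not placental copies, Ctsk differed most. Of 7 listed, 6 were tested, with 3 above and 3 below 0, a median log2 fold change of 0.04 and 0 past the adjusted threshold by edgeR. An unadjusted p under 0.05 was reached by 1 gene above 0 and by 0 below it, against 3.51% and 3.22% of tested genes. Ctsk, a collagen-degrading protease of osteoclasts, fibroblasts and macrophages, was at 11.6, 12.6 and 19.7 CPM in mutants and at 7.36, 5.42 and 3.91 CPM in wt. The groups did not overlap, and the log2 fold change was 1.40 ± 0.31 (adjusted p 0.294 by edgeR and 0.0072 by DESeq2). Ctse, an aspartic protease of endosomes, lay the other way, at 56.6, 62.1 and 60.1 CPM in mutants and 73.7, 63.6 and 77.0 CPM in wt (log2 fold change -0.26, adjusted p 0.765 by edgeR). Ctsa, the protective protein of the beta-galactosidase and neuraminidase complex, had a log2 fold change of -0.0065.

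Elastase, cathepsin G and proteinase 3 are the granule serine proteases that cathepsin C activates in neutrophils. Transcripts of elastase and cathepsin G were at or near 0 in these libraries, and those of proteinase 3 were low outside mutant library 2. Elane (neutrophil elastase) had 0 counts in all 6 libraries, which allows up to 0.0829 to 0.102 CPM per library (3 counts), and Ctsg had 6 counts in wt library 3 and 0 in the others. Prtn3 (proteinase 3) was at 0.276, 4.17 and 0.369 CPM in mutants and 0.328, 0.727 and 0.156 CPM in wt, and Prss57, a related granule protease, at 3.98, 18.5 and 6.34 CPM in mutants and at 6.47, 10.5 and 7.66 CPM in wt, so that mutant library 2 held the highest level of both. Of the 6 listed proteases, which include the granzymes Gzma and Gzmb of lymphocytes, 4 were tested, 2 above and 2 below 0, with 0 past the threshold and 0 at an unadjusted p under 0.05 by edgeR, and DESeq2 called 0. The number above 0 was 0 without mutant library 2 and 3 without mutant library 1 or wt library 1.

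The 7 tested cathepsin inhibitors, of 14 listed, overlapped between the groups, with 4 above and 3 below 0, with a median log2 fold change of 0.06, 0 past the threshold by edgeR or DESeq2 and 0 at an unadjusted p under 0.05. Cystatin C (Cst3), a secreted inhibitor, was the most abundant of them with 279.7 ± 74.6 CPM in mutants against 268 ± 40.6 CPM in wt. This is 747 ± 164 TPM in mutants and 719 ± 102 TPM in wt. Its means lay between those of Ctsd and Ctsz, but in mutants its SD spans the Ctsz mean (676 TPM), so that order is not resolved there. Cystatin B (Cstb), an inhibitor in the cytosol, had 40.1 ± 9.48 CPM in mutants against 31.5 ± 7.70 CPM in wt, and Cst7 (cystatin F), which inhibits cathepsin C, had 1.29 ± 0.178 CPM in mutants against 1.54 ± 0.502 CPM in wt. Counts of the stefin A family, including Stfa2l1, are uncertain because its near-identical copies can share reads.

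Further lysosomal hydrolases and their activators were spread on both sides of 0, as 20 of 37 were above and 17 below, with a median log2 fold change of 0.04 and 0 past the threshold by edgeR. An unadjusted p under 0.05 was reached by 3 genes above 0 and by 1 below it, against 3.51% and 3.22% of tested genes. Gla, alpha-galactosidase A, was at 207, 217 and 206 CPM in mutants and 129.9, 173 and 148 CPM in wt, without overlap (log2 fold change 0.48 ± 0.12, adjusted p 0.345 by edgeR and 0.027 by DESeq2). Gaa, the acid glucosidase that digests glycogen, was at 41.6, 47.8 and 49.9 CPM in mutants and 30.9, 31.3 and 39.0 CPM in wt, and Hexa, a subunit of beta-hexosaminidase, had a log2 fold change of 0.29. The lysosomal mannosidase gene Man2b1 lay the other way, at 821, 971 and 921 CPM in mutants and 1013, 1059 and 1096 CPM in wt (log2 fold change -0.22, adjusted p 0.675 by edgeR).

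Membrane proteins, the proton pump and the delivery and control genes of the lysosome likewise held 0 genes past edgeR's threshold. Of 19 other lysosomal membrane genes 13 were above 0, with a median of 0.05, against 50.7% above 0 among tested genes. An unadjusted p under 0.05 was reached by 2 genes above 0 and 0 below it, against 3.51% and 3.22% of tested genes. Cd68, a glycoprotein of macrophage and neutrophil lysosomes, was at 217, 214 and 224 CPM in mutants and 179.5, 191 and 183 CPM in wt, and Lamp3, also a marker of alveolar type 2 cells, at 9.56, 6.57 and 12.4 CPM in mutants and at 3.42, 6.41 and 0.688 CPM in wt. Of 17 V-ATPase subunits, which acidify the lysosome, 7 were above and 10 below 0, with a median of -0.0069, but 8 or 9 were above 0 with a library left out and 9 with library totals. An unadjusted p under 0.05 was reached by 1 gene on each side, against the same 3.51% and 3.22% of tested genes. Atp6v0d2, also an alveolar macrophage marker, was at 30.6, 14.8 and 24.9 CPM in mutants and 14.7, 18.5 and 7.88 CPM in wt, with overlap (log2 fold change 0.78 ± 0.34, adjusted p 0.716 by edgeR). Atp6v0a1 was at 84.3, 68.7 and 75.0 CPM in mutants and 105, 104 and 102 CPM in wt, without overlap (log2 fold change -0.45 ± 0.12, adjusted p 0.370 by edgeR and 0.030 by DESeq2).

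Of 6 genes of the TFEB family and its regulators 4 were above 0, against 50.7% of tested genes. Tfeb was at 148, 113 and 102 CPM in mutants and 108, 125 and 148 CPM in wt (log2 fold change -0.07, 95% interval -0.43 to 0.30), and Tfe3 averaged 139 ± 5.92 CPM in mutants against 127 ± 5.87 CPM in wt, while Tfec, at 1.35 to 5.86 CPM in mutants and 0.875 to 2.25 CPM in wt, had an unadjusted p of 0.032 and an adjusted p of 0.667 by edgeR. Of 9 genes for delivery by mannose 6-phosphate or sortilin 4 were above 0, with a median of -0.05 and 0 at an unadjusted p under 0.05. M6pr, the cation-dependent receptor, had 146 ± 18.6 CPM in mutants against 131 ± 9.39 CPM in wt, and Sort1 (sortilin) had 50.5 ± 6.11 CPM in mutants against 61.5 ± 6.20 CPM in wt.

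Around acid lipase, 9 of 13 genes of cholesterol and lipid handling were above 0, against 50.7% of tested genes. Their median was 0.16, with 0 past the threshold by edgeR or DESeq2. An unadjusted p under 0.05 was reached by 2 genes above 0 and 1 below it, against 3.51% and 3.22% of tested genes. Lpl, the lipoprotein lipase at the cell surface, was at 78.5, 70.6 and 59.4 CPM in mutants and 63.9, 42.6 and 34.1 CPM in wt. Lipe, the neutral lipase of lipid droplets, lay the other way, at 87.5, 91.5 and 81.1 CPM in mutants and 116, 96.3 and 129 CPM in wt (log2 fold change -0.39 ± 0.13, adjusted p 0.551 by edgeR).

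**Figure D4:**
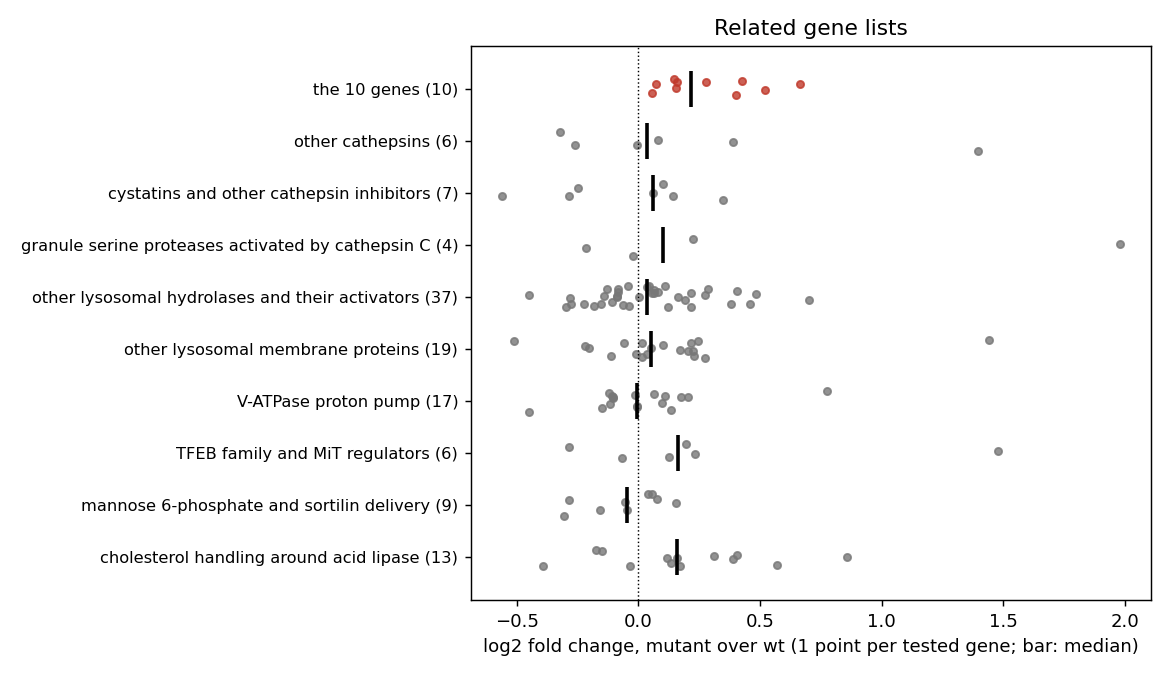
Log2 fold change (mutant over wt) of each tested gene of the 10 genes (red) and of 9 related lists (grey), with black bars at the medians and the number of tested genes in brackets. The points of the 10 genes lie between 0.05 and 0.67, whereas each other list shown has points on both sides of 0. All lists were chosen with earlier results of these data known. The 15 alveolar macrophage markers, not shown here, were also all above 0.

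Summed markers of alveolar macrophages and fibroblasts were above the wt range in all 3 mutant libraries, and 0 of these markers passed edgeR's adjusted threshold. All 15 alveolar macrophage markers had a log2 fold change above 0 (median 0.64, 6 at an unadjusted p under 0.05, and 1, Ctsk, by DESeq2), and none of them was at 0 in all libraries. Among tested genes 50.7% were above 0, 3.51% also had such a p, and DESeq2 called 0.514% higher. The smallest values of the 15 were 0.0034 (Fabp4) and 0.07 (Fabp5). The summed level of the 15 markers was 694 to 1364 CPM in mutants and 398 to 622 CPM in wt. Without Chil3, which neutrophils also express, it was 322 to 364 CPM in mutants and 236 to 304 CPM in wt, so that the groups were apart by both sums. Car4 and Siglecf, the most abundant markers after Chil3, each overlapped between the groups. Each mutant library lay above each wt library for 5 of the 15 markers, against 6.82% of tested genes. The macrophage receptor gene Marco was at 7.38 to 10.98 CPM in mutants, against 3.88 to 8.15 CPM in wt, with overlap. Ctsk and the proton pump gene Atp6v0d2 belong to this list as well as to the lists above.

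Of 12 alveolar type 2 and airway epithelial markers 9 were above 0, with a summed level of 604 to 999 CPM in mutants and 331 to 621 CPM in wt that overlapped, and of 9 fibroblast markers 8, with 674 to 1159 CPM in mutants and 559 to 653 CPM in wt. An unadjusted p under 0.05 was reached by 6 of the epithelial and 5 of the fibroblast markers, all above 0, against 3.51% of tested genes, and DESeq2 called Sftpb and Col1a1 higher among them, against 0.514%. Alveolar type 2 cells are known for high Ctsh and fibroblasts for Ctsk and Ctsl. The 12 markers of interstitial macrophages and monocytes, 7 of them above 0, summed to 1189 to 1262 CPM in mutants and 1225 to 1267 CPM in wt. B and plasma cell markers were above 0 for 6 of 8 tested, dendritic cell markers for 2 of 9, T and NK cell markers for 3 of 10 and endothelial markers for 0 of 8, and the eosinophil, basophil and mast cell genes Epx, Fcer1a and Tpsb2 were at 0 in all libraries. Neutrophil markers were above 0 for 2 of 10. An unadjusted p under 0.05 (edgeR) was reached by 1 above 0 and 3 below it, against 3.51% and 3.22% of tested genes. DESeq2 called Il1r2 higher and S100a8 and Cxcr2 lower, against 0.514% and 0.469%. The neutrophil sum was 30403, 37062 and 31669 CPM in mutant libraries 1 to 3, against 33636.5 to 34435.5 CPM in wt. Mutant libraries 1 and 3 thus lay below the wt range. Mutant library 2 lay above it, with Mmp9 at 7261 CPM against 3755 and 3874 CPM in mutant libraries 1 and 3. Mutant library 3, the highest library for 6 of the 10 lysosomal genes, also had the highest sums of alveolar macrophage, epithelial and fibroblast markers. It did not have the highest sum of interstitial macrophage and monocyte markers. Single alveolar macrophage markers differed in this. Chil3 (521, 372 and 999.6 CPM in mutant libraries 1 to 3), Car4, Ctsk, Marco and Cidec were highest in mutant library 3. Mrc1, Pparg, Plet1, Ear1, Ear2 and Atp6v0d2 were highest in mutant library 1, Siglecf, Fabp5 and Krt79 in mutant library 2, and Fabp4 in wt library 1. The part of these cell types in the differences of the lysosomal genes was not tested.

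**Figure D5:**
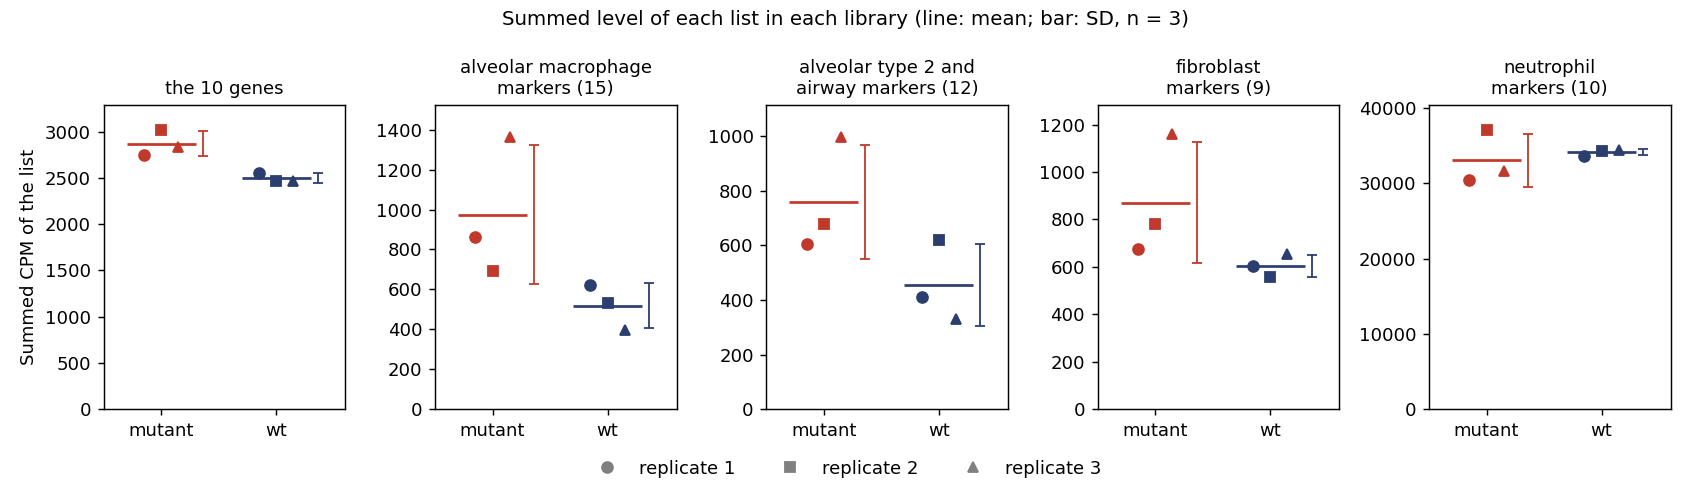
Summed CPM of the 10 genes and of 4 marker lists in each library (axes from 0), mutant in red on the left and wt in blue on the right, with mean lines and SD bars (n = 3). The alveolar macrophage sum is 694 to 1364 CPM in mutants and 398 to 622 CPM in wt, and the neutrophil sum overlaps between the groups. Much of the alveolar macrophage sum is Chil3, which neutrophils also express.

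The genes with the profile nearest to those of Ctsc, Lipa and Ctsl were sought among 6659 genes that averaged 10 CPM or more and have an established symbol, by the root mean square distance of log2 CPM centred on each gene's own mean over the 6 libraries. Nearest to Ctsc were Mapkapk2 (distance 0.111 on the log2 scale), Uap1l1 (0.116) and Dpep1 (0.119). The protein kinase gene Mapkapk2 was at 169, 142 and 186 CPM in mutants and 109, 127 and 113 CPM in wt, with mutant library 2 the lowest mutant, as for Ctsc. Nearest to Lipa were Tmem260 (0.0645), the Golgi nucleotide sugar transporter gene Slc35b2 (0.0799) and Nop53 (0.0970), and nearest to Ctsl were Utp11 (0.0408), Nab1 (0.0669) and the cell death gene Bax (0.0698). Slc35b2 was at 45.8, 54.2 and 48.0 CPM in mutants and 31.6, 36.5 and 35.9 CPM in wt, highest in mutant library 2 as Lipa was. Nearness describes these 6 libraries only.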

How the data were processed

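The authors deposited 1 table of raw read counts per gene, not normalized, made with STAR and featureCounts on GRCm38 per the submitters' processing notes; no source used here states versions, annotation release or strand setting. Per the labels' protocols, cDNA was made with SMART-Seq v2, which amplifies polyadenylated RNA without marking strand or molecules, so counts include PCR copies and counting limits cover counting error only. Symbols came from GENCODE M21 (55094 of 55487 identifiers matched exactly, 300 without version). The deposited summed exon length, another column of the table, gave TPM.

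Genes were kept by filterByExpr with a minimum count of 10 and scaled by TMM, and tested for a difference of mutant from wt with the quasi-likelihood F test of edgeR (version 4.0.16 under R 4.3.3). P-values were adjusted by Benjamini-Hochberg over all 15774 tested genes at 5%. Standard errors were obtained as log2 fold change over root F. In simulated counts of this comparison over 15774 genes, 50 genes were changed at each size of change. Among those averaging 10 CPM or more, 20.8% of 24 genes changed 1.5-fold and 68.4% of 19 genes changed 2-fold were called. These shares rest on few genes of a single simulated set. Alternatives were other scalings, filters and tests (DESeq2 1.42.0, limma-voom 3.58.1) and leaving out each library. The members and lists were chosen with earlier results of these data known. Named beyond the members were the genes of smallest p in each list, with further genes of a list named for their role after their values were seen, and the 3 genes nearest in profile to each of the 3 members with the smallest p. Single values of some genes this rule would include are not reported here. No set test was run.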

Additional observations from a re-analysis of the deposited data

How the results depend on the processing

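Of 130 log2 fold changes (10 genes under 13 alternatives) 124 kept their direction and their side of the threshold. The sign turned for Ctsd without mutant replicate 2 (-0.0085) and for Ctss without mutant replicate 1 (-0.0055) and without wt replicate 3 (-0.029), while their highest values with a replicate left out were 0.24 and 0.19. Past the threshold came Ctsc and Lipa with DESeq2's Wald test and Ctsc with no filter on low counts, and the cause was not tested. The adjusted p of Ctsc ran from 0.0084 to 0.725 and that of Lipa from 0.041 to 0.764 over the alternatives. With any 1 library left out, 9 to 10 of the 10 genes were above 0 and 3 to 5 had an unadjusted p under 0.05. Counts over all genes were 81 higher and 74 lower with DESeq2's Wald test, 41 and 29 with no filter, 14 and 4 when only genes averaging 10 CPM or more were tested, and 0 to 1 and 0 to 1 with a library left out, against 1 and 0. Scaling by DESeq2's size factors or library totals, limma-voom and edgeR's robust option left these counts as they were. The 10 genes had 5 to 7 members with no overlap between groups when a library was left out. Groups with fewer libraries come apart more easily, and the share of all tested genes was not computed with a library left out. These counts therefore do not show how stable the separation is. Of 17 V-ATPase subunits 7 were above 0, against 9 with library totals, 10 at a mean of 10 CPM or more and 8 to 9 with a library left out. The granule protease genes Elane and Ctsg were at or near 0 and were not tested for a difference. No paired analysis was possible because the labels carry no replicate number shared between the groups.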
